A study of Rattus norvegicus with 21 samples.

Results

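Genes of the complement and coagulation systems were followed in rat liver. The 40 genes were listed by name from the 2 plasma cascades, and each was represented by the probe set that carries exactly its symbol and, among several, has the highest mean log2 signal over all arrays. A probe set of their own was found for 35 of the 40, out of 14218 genes with such a probe set on the array. C2 and Cfb share 4 probe sets annotated to both and are given no values, and F7, F11 and F13b were not analysed here. All 35 measured genes passed the filter on low signals in every fit. Livers came from male rats of 2 studies, with 21 animals, 1 array per animal and 3 biological replicates per group. In the PBO study, Sprague-Dawley rats received piperonyl butoxide (PBO, an insecticide synergist) by mouth at 500, 1000 or 1500 mg/kg for 7 days, and controls the vehicle, methyl cellulose at 0.5%. In the DAM study, Fischer344 rats ate dammar resin (DAM, a plant resin) at 2% or 5% of the diet for 28 days, given as 800 and 2000 mg/kg, and controls ate basal diet. The studies therefore differed in strain, route, duration and storage of the livers (RNAlater for PBO, liquid nitrogen for DAM), all of which cannot be told apart from the compound.

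Hepatocytes make most of the complement and clotting proteins of plasma. In complement, the lectin and classical routes start when Mbl1, Mbl2 or C1q bind a surface and the serine proteases Masp1, Masp2, C1r and C1s are activated; C3 is then cleaved, Cfd drives the alternative route, and C5, C6, C8 and C9 assemble into a membrane pore. In coagulation, the contact factors F12 and Klkb1 and the factors F9, F10 and F5 lead to thrombin (from F2), which turns fibrinogen (Fga, Fgb, Fgg) into fibrin. Proc, Pros1, Serpinc1 and Serpind1 restrain clotting, and Plg dissolves fibrin, restrained by Serpinf2 and Cpb2.

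Signals are MAS5 intensities, and changes are differences of log2(signal + 16), which understate the change of genes with low signal. The standard error (SE) of a change is that of the fit, with n = 3 animals per group, and rests on a spread pooled over all arrays of a study. Median signals ranged from 94.3 to 114 on the PBO arrays and from 76.0 to 86.2 on the DAM arrays, and the trimmed mean was close to 500.3 on all. The lowest PBO median was that of replicate 3 at 1500 mg/kg. The number of arrays limits the precision. A control probe set ratio of 3' to 5' signal for Actb, a sign of RNA quality, lay between 2.38 and 3.16 in the PBO study and between 5.56 and 9.81 in the DAM study. It was 2.85, 3.03 and 3.16 in PBO controls and 2.64, 2.78 and 2.38 at 1500 mg/kg, and its part in the changes was not tested. Albumin (Alb), the defining hepatocyte product, had signals of 44668, 51309 and 68712 in PBO controls and 52466, 61872 and 54397 at 1500 mg/kg. The 7 hepatocyte markers, Alb among them, had a median change of -0.13 at this dose, and their medians in the 3 animals were -0.12, -0.005 and -0.43; their part in the changes was not tested.

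At 1500 mg/kg PBO, genes of every role in both cascades fell. Of the 35 genes, 19 fell and 1 rose, against 9.26% of all 18625 probe sets tested lower and 8.08% higher. The median change of the 35 was -0.61, against -0.082 over all probe sets tested. The genes have high signals, and of the tenth of probe sets with the highest mean signal 19.4% were lower and 19.3% higher, against 54.3% and 2.86% of the 35. The deepest fall was that of C6, a component of the membrane pore, followed by Cfd, Serpind1, C1s, C1r, C8b, C8g, C8a and F10. Without replicate 3 at this dose C6 and Cfd still led, with C8g next at -1.11 and Serpind1 after it at -1.03, and C1s and C1r stood at -0.79 and -0.69. The gene that rose was Pros1, which encodes protein S, a cofactor of activated protein C. In 26 genes all 3 animals at 1500 mg/kg lay below all 3 controls, in 2 (Pros1 and F5) they lay above, and in 7 the groups overlapped. This was not counted over all probe sets, so the counts describe the 35 genes alone. Scaling the arrays to a common median moved all changes at this dose by 0.13, and 17 genes then fell and 1 rose. In a fit restricted to these 2 groups, 7 of the 20 kept their call. Without control replicate 2 or 3 in the fit, 13 and 11 did. In bulk tissue, fewer cells of a type and less RNA per cell cannot be told apart.

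**Figure D1:**
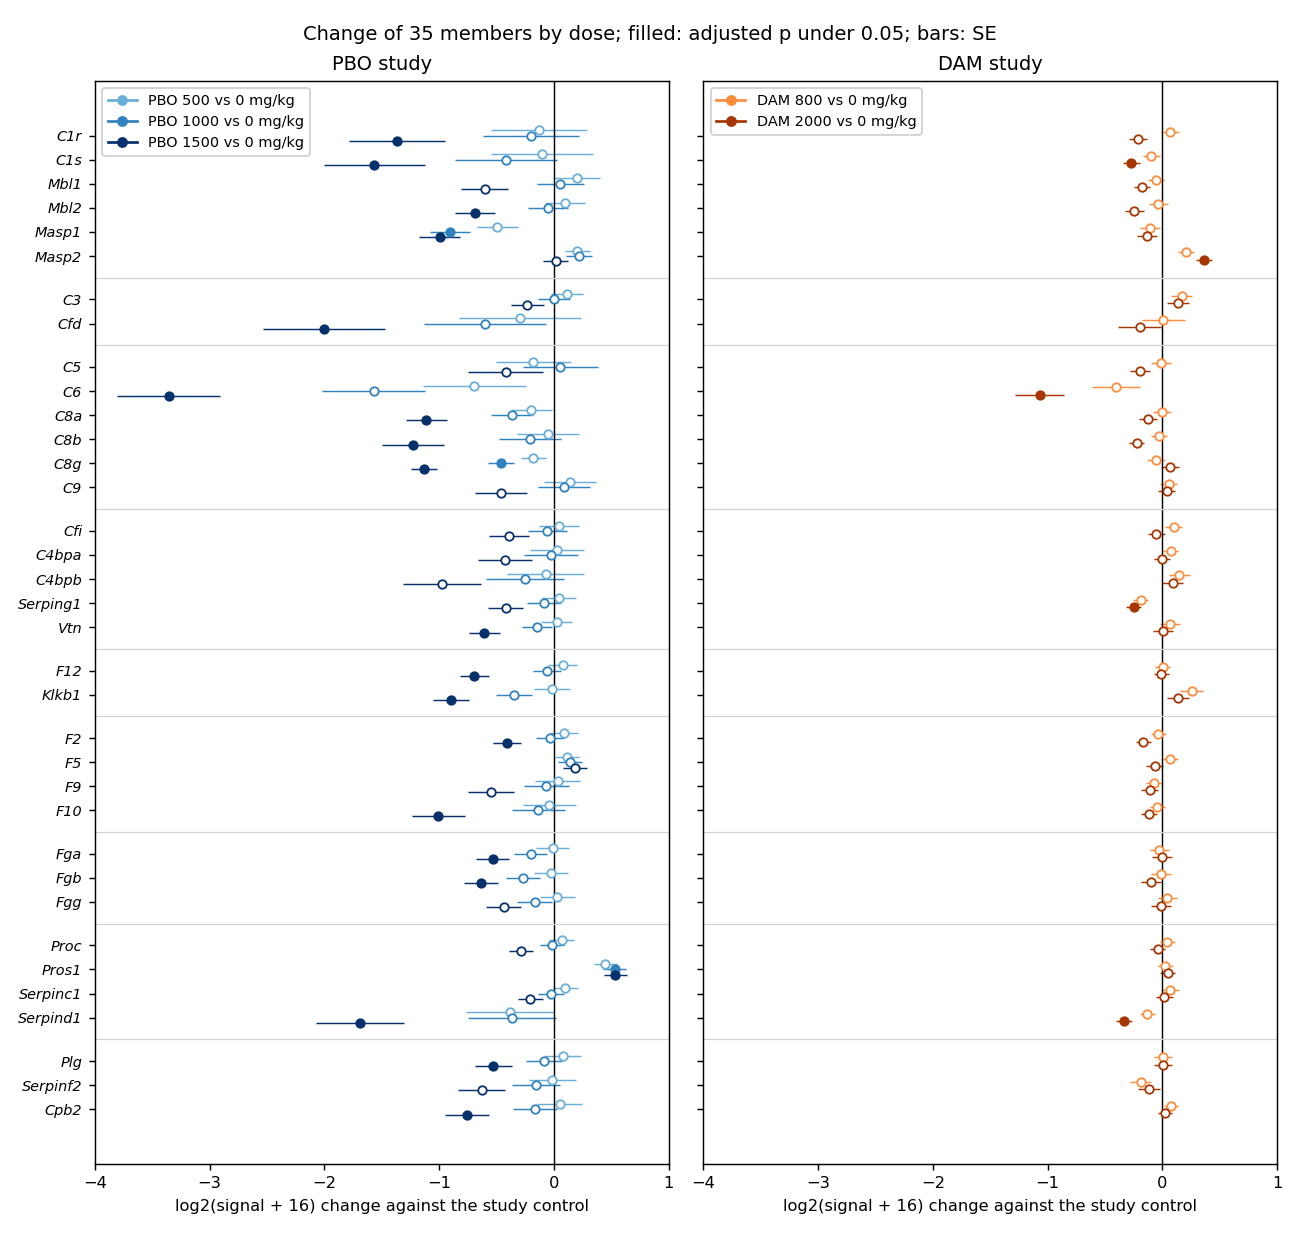
Change of each of the 35 genes against its study's control (log2(signal + 16), horizontal axis), for 3 PBO doses (left) and 2 DAM doses (right), with genes ordered by role and separated by grey lines. Filled points passed an adjusted p of 0.05 and bars are the SE of the fit. At PBO 1500 mg/kg 19 genes are filled left of 0, while most DAM points lie close to 0.

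The animals at 1500 mg/kg were not alike. The median change of the 35 genes from the control mean was -0.43 in replicate 1, -0.28 in replicate 2 and -1.16 in replicate 3, and 31, 26 and 33 genes lay below all controls. These counts were not made over all probe sets. Medians of the other dosed animals lay between -0.17 and 0.067. The coefficient of variation among the 3 animals had a median over genes of 25.3% at 1500 mg/kg, against 4.3% to 8.2% in the other groups. Without replicate 3, 18 genes fell and 1 rose at this dose: F2 and Plg were no longer called (adjusted p = 0.0682 and 0.0543), and C4bpb was (0.017). Several folds shrank, as given beside each gene. The summed signal of 8 macrophage markers was also low in replicate 3, at 3155, against 19549.9 and 11116 in replicates 1 and 2 and 16955 to 18595 in controls; its part in the changes was not tested.

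**Figure D2:**
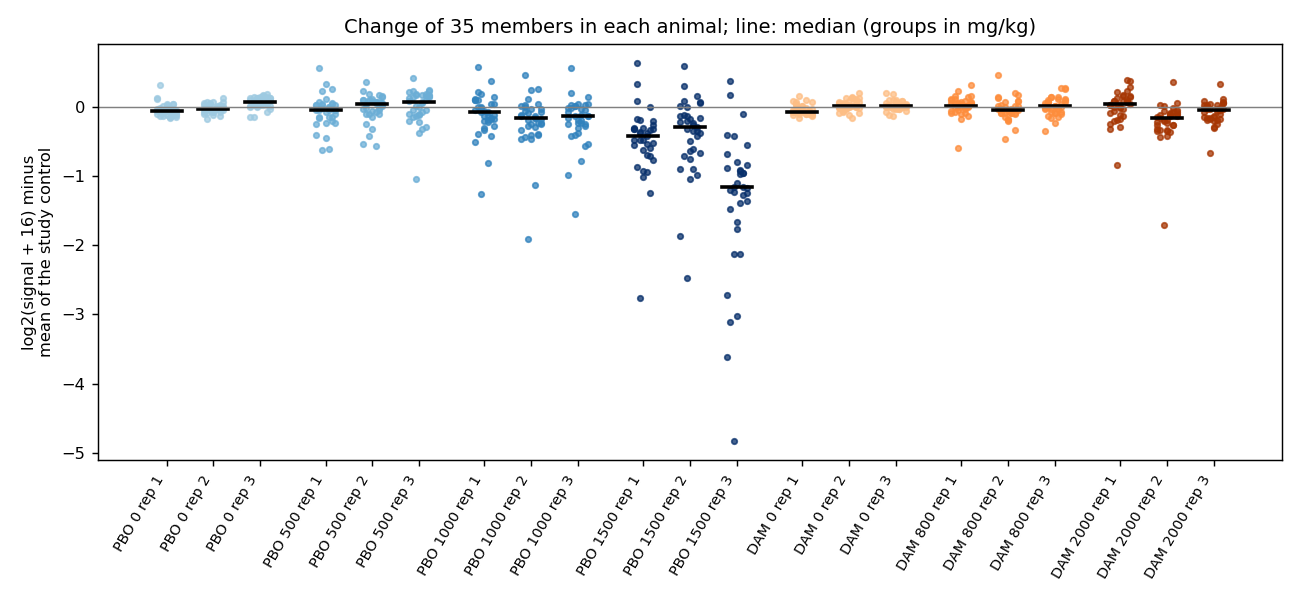
Change of the 35 genes in each of the 21 animals from the mean of its study's controls (log2(signal + 16), vertical axis); each point is a gene and the black line is the median. Replicate 3 at PBO 1500 mg/kg has a median of -1.16 and the lowest single point, C6 at -4.83.

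The terminal pathway held the largest change. C6 had signals of 7200.4, 7031 and 7224 in the 3 PBO controls, 4632, 5351 and 3473 at 500 mg/kg, 2987, 1898 and 2443 at 1000 mg/kg and 1039.7, 1278 and 236 at 1500 mg/kg. Every dosed animal lay below every control, and no group overlapped the next. At 1500 mg/kg C6 fell by 10.2-fold, a log2 change of -3.35 ± 0.45 (SE, adjusted p = 0.000323), and without replicate 3 the change was -2.62 (adjusted p = 1.48e-06).

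The 3 subunits of C8, which joins C5b, C6 and C7 before the pore forms, fell together. C8g signals were 22129, 21043 and 25994 in controls and 9672, 11632 and 10238 at 1500 mg/kg, with 20696, 21409 and 18769.7 at 500 and 17215, 17313 and 15507 at 1000 mg/kg. Replicate 3 was not the lowest here, and the change was -1.13 ± 0.11 (SE, adjusted p = 3.58e-05). C8a went from 14759, 13774 and 14875 to 7604, 8614 and 4537, a change of -1.11 ± 0.18 (adjusted p = 0.0011). C8b went from 18867, 19665 and 19829 to 10121, 12787 and 4444, a change of -1.22 ± 0.27 (adjusted p = 0.00805). In both of these genes replicate 3 was the lowest of the dosed animals, and without it the changes were -0.84 (adjusted p = 2.49e-05) for C8a and -0.77 (adjusted p = 0.000124) for C8b. C5, the source of the first piece of the pore, and C9, which lines it, were not called, with changes of -0.42 ± 0.33 (adjusted p = 0.416) and -0.46 ± 0.23 (adjusted p = 0.188); without replicate 3 the value of C5 was 0.10.

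The 250 bases before the annotated start of 5 genes are shown because they hold the largest fall (C6), neighbouring genes that fell together (C8b and C8a, with no protein-coding gene between them), a fibrinogen chain and the gene that rose (Pros1). Sequences are those of RefSeq for the rat assembly GRCr8, read 5′ to 3′ on the gene's strand, and 28 of the 35 genes had an entry. Capitals mark matches on either strand to the letters searched: GTTAAT (part of the site of HNF1, a hepatocyte factor), TGTTTGC (FOXA), TTGCNNAA (C/EBP), TTCNNNGAA (STAT3) and CTGGGAA (the element of acute phase genes known as IL-6 type II).
C6, chr2:55573383-55573632, plus strand: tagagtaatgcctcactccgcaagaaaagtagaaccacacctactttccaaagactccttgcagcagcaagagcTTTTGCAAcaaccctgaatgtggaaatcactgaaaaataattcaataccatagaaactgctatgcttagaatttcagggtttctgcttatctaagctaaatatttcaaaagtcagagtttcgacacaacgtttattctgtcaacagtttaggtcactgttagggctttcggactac
C8b, chr5:124763864-124764113, plus strand: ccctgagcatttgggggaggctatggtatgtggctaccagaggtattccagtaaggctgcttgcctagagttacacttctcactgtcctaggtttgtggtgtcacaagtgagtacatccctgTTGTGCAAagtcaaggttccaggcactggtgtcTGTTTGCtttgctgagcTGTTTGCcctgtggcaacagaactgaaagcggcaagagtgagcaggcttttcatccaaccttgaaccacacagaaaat
C8a, chr5:124866632-124866881, minus strand: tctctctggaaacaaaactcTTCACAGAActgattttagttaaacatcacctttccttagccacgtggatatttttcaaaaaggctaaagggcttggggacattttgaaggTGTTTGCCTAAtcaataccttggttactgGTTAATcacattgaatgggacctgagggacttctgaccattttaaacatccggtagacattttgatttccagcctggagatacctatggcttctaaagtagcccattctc
Fgb, chr2:170700876-170701125, minus strand: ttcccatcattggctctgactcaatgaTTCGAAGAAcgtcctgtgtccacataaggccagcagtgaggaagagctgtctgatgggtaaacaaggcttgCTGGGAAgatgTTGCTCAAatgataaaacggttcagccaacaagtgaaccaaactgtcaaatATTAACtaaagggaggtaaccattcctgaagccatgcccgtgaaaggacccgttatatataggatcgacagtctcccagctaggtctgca
Pros1, chr11:13677049-13677298, plus strand: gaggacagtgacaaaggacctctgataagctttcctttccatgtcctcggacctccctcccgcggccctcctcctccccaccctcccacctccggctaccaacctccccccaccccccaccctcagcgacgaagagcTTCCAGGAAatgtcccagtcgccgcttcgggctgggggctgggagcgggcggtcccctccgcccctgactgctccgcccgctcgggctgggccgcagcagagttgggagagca
In C8a the FOXA and C/EBP matches overlap. The C/EBP letters stood in 11 of the 28 stretches, or 39.3%, against 9.20% of all 27457 stretches of the same length. The HNF1 letters stood in 9 of 28 (32.1% against 6.46%), the IL-6 type II letters in 9 (32.1% against 9.33%), the STAT3 letters in 7 (25% against 7.52%) and the FOXA letters in 3 (10.7% against 4.09%). The letters CAAAGTCCA of HNF4 stood in 0 of 28, against 0.331% of all. A match of letters is a description of the sequence. Genes with and without a match fell: C6, C8a and C8b hold the C/EBP letters, and F10, F12, Cfd and Masp1 hold none of the letters searched.

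Among the genes that start the cascades, 4 of 6 fell at 1500 mg/kg. Masp1, a protease carried by mannose-binding lectin, had signals of 1881, 2089.7 and 2369 in controls, 1380.1, 1421 and 1687 at 500, 1191, 957 and 1222 at 1000 and 1292, 1120.2 and 794 at 1500 mg/kg. All dosed animals lay below all controls, and the 1000 and 1500 mg/kg groups overlapped. The change was -0.99 ± 0.18 (adjusted p = 0.00219), but 2 other Masp1 probe sets gave -0.13 and -0.20 and were not called (adjusted p = 0.841 and 0.689). Mbl2, a mannose-binding lectin, went from 19803, 19463 and 20327 to 14281, 14066 and 9280.2, a change of -0.69 ± 0.17 (adjusted p = 0.0166), and the gene's second probe set gave -0.43 and was not called. Without control replicate 3 the call of Mbl2 ended (adjusted p = 0.0556). C1s, the protease that cleaves C4 and C2, went from 16753, 16429 and 19298 to 9563, 10640.0 and 2005. The groups of C1s did not overlap, and replicate 3 was far below the other dosed animals. Its change was -1.56 ± 0.44 (adjusted p = 0.0287), and -0.79 (adjusted p = 7.27e-05) without replicate 3. C1r, which activates C1s and lies next to it, had a change of -1.37 ± 0.42 (adjusted p = 0.0407), and -0.69 (adjusted p = 0.0259) without replicate 3. Both lost their call when any 1 of the 3 controls was left out, with adjusted p between 0.0655 and 0.112. Mbl1 and Masp2 were not called, with changes of -0.60 ± 0.20 (adjusted p = 0.0604) and 0.017 ± 0.11 (adjusted p = 0.936), and 2 other Masp2 probe sets gave -0.33 and -0.63 (adjusted p = 0.301 and 0.071).

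Among the genes of C3 cleavage and the alternative route, Cfd fell. Cfd, the protease of the alternative route that fat tissue also secretes, had low signals of 592, 508 and 543 in controls and 369.6, 139 and 30.0 at 1500 mg/kg. The groups did not overlap, and the dosed animals differed widely. Its change was -2.01 ± 0.53 (adjusted p = 0.0207), and -1.20 (adjusted p = 0.0165) without replicate 3, where the macrophage markers were also lowest. Leaving out control replicate 1, 2 or 3 ended the call (adjusted p = 0.0652, 0.0514 and 0.0597). C3, the central component of all routes, kept signals of 37572 to 57807 at 1500 mg/kg, against 50905 to 60366 in controls, with a change of -0.23 ± 0.14 (adjusted p = 0.293).

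Of 5 complement regulators, Vtn fell. Vtn encodes vitronectin, which blocks insertion of the pore, and went from 38262, 41794 and 47365 to 29232, 33118 and 22215, a change of -0.60 ± 0.13 (adjusted p = 0.00804). All animals at 1500 mg/kg lay below all controls. C4bpb, a chain of the C4b-binding protein, had a change of -0.98 ± 0.34 (adjusted p = 0.0652), and C4bpa, the gene of the other chain, which lies on the same chromosome with 1 protein-coding gene between, one of -0.43 ± 0.23 (adjusted p = 0.234). Cfi, which cleaves C3b and C4b, and Serping1, the inhibitor of C1r and C1s, had changes of -0.39 ± 0.17 (adjusted p = 0.14) and -0.42 ± 0.15 (adjusted p = 0.0696).

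**Figure D3:**
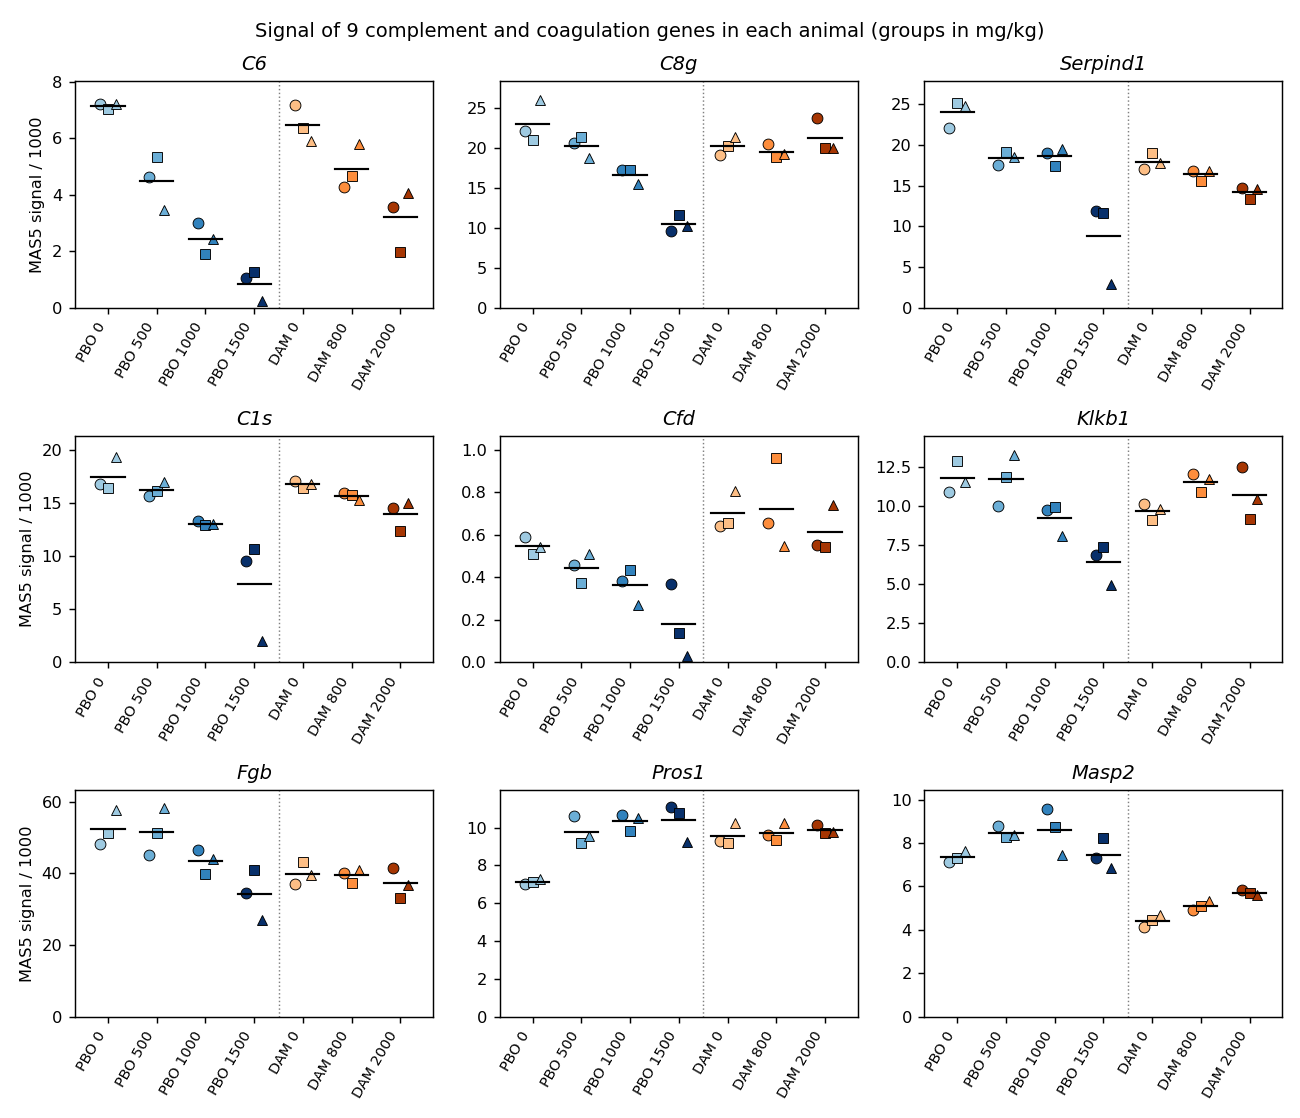
MAS5 signal divided by 1000 (vertical axes start at 0) of 9 genes in each animal of the 7 dose groups; circles, squares and triangles are replicates 1, 2 and 3 and the bar is the group mean. The mean of C6 is lower at each higher dose of either compound, Pros1 lies above all controls at every PBO dose, and the mean of Masp2 is higher at each higher DAM dose.

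Both measured genes of the contact system fell. F12, the factor that starts contact activation, went from 15210.5, 13948 and 15043 to 9031, 11029.8 and 7580.5, a change of -0.69 ± 0.12 (adjusted p = 0.00233). Klkb1, plasma prekallikrein, which F12 activates, went from 10904, 12851 and 11519 to 6879.6, 7383 and 4947, a change of -0.89 ± 0.16 (adjusted p = 0.00206). In each gene all 3 animals at 1500 mg/kg lay below all controls. Their calls held under every alternative run for this comparison.

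In the procoagulant cascade, 2 of 4 genes fell. F10, which makes thrombin from prothrombin, went from 12585, 12479 and 14448 to 8508, 8465 and 3865, a change of -1.01 ± 0.23 (adjusted p = 0.0104), and -0.63 (adjusted p = 0.000769) without replicate 3. F2, prothrombin, went from 32760.1, 31965 and 36053 to 26958, 28890.1 and 20878, a change of -0.41 ± 0.12 (adjusted p = 0.0371). The groups did not overlap in either gene, but the call of F2 ended without replicate 3 and without any 1 of the controls (adjusted p = 0.0667 to 0.127). F9 and F5 were not called, with changes of -0.55 ± 0.20 (adjusted p = 0.0747) and 0.18 ± 0.11 (adjusted p = 0.272). The 3 fibrinogen chains, whose genes lie next to each other, had similar changes. Fgb went from 48073, 51217 and 57714 to 34624, 40833 and 26887, a change of -0.63 ± 0.15 (adjusted p = 0.0109). Fga went from 43764, 45002 and 49929.8 to 34311, 38572 and 24435, a change of -0.54 ± 0.15 (adjusted p = 0.024). All animals at 1500 mg/kg lay below the controls in both, and Fgg, at -0.44 ± 0.15 (adjusted p = 0.0661), missed the threshold. Without control replicate 3 the calls of Fgb and Fga ended (adjusted p = 0.0511 and 0.0887), and for Fga also without control replicate 2 (0.0573). A second Fga probe set gave -1.41 (adjusted p = 0.00101), and a second Fgb probe set -0.11 (0.863).

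The anticoagulants moved in both directions. Pros1 had signals of 7038, 7103 and 7289.6 in controls, 10585, 9165 and 9553 at 500, 10667, 9811 and 10508 at 1000 and 11105, 10779 and 9234 at 1500 mg/kg. Each dosed animal lay above each control, and the 3 dosed groups overlapped. Its change at 1500 mg/kg was 0.53 ± 0.10 (adjusted p = 0.00304), which held under every alternative. Serpind1, heparin cofactor II, an inhibitor of thrombin, had signals of 22119.9, 25178 and 24750.3 in controls, 17522, 19149 and 18509 at 500 mg/kg, 19073, 17408 and 19482 at 1000 mg/kg and 11897, 11586 and 2947 at 1500 mg/kg. All dosed animals lay below all controls, and 1500 mg/kg below the other doses. The change at 1500 mg/kg was -1.69 ± 0.38 (adjusted p = 0.00904), and -1.03 (adjusted p = 7.83e-06) without replicate 3. Proc, protein C, and Serpinc1, antithrombin, were not called, with changes of -0.28 ± 0.11 (adjusted p = 0.087) and -0.21 ± 0.11 (adjusted p = 0.227). Of the fibrinolysis genes, Cpb2, a carboxypeptidase that protects fibrin, went from 20779, 22989 and 22140.3 to 15282, 16908 and 8504, a change of -0.76 ± 0.19 (adjusted p = 0.0178), and -0.45 (adjusted p = 0.00359) without replicate 3. Plg, plasminogen, went from 32776, 35903 and 40291 to 27970.4, 30821 and 18391, a change of -0.53 ± 0.16 (adjusted p = 0.0389). The groups did not overlap in these 2 genes. Without 1 control the call of Plg ended in each case (adjusted p = 0.0541 to 0.136), and that of Cpb2 without replicate 2 or 3 (0.0595 and 0.0553). Serpinf2, the inhibitor of plasmin, had a change of -0.63 ± 0.21 (adjusted p = 0.0521).

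Lower PBO doses were compared with the same 3 controls. At 1000 mg/kg, 2 of the 35 genes fell and 1 rose, against 1.23% and 1.88% of all probe sets tested. In the tenth of probe sets with the highest mean signal 2.63% were lower and 7.35% higher, against 5.71% and 2.86% of the 35. Masp1 had a change of -0.90 ± 0.18 (adjusted p = 0.0154), C8g of -0.46 ± 0.11 (adjusted p = 0.0412) and Pros1 of 0.53 ± 0.10 (adjusted p = 0.0124). The other Masp1 probe sets gave 0.59 and -0.39 and were not called (adjusted p = 0.471 and 0.566). C6 stood at -1.57 ± 0.45 (adjusted p = 0.0859), although its animals lay below all controls. That fit includes the spread of the 1500 mg/kg animals. Without replicate 3 of that group, 6 fell and 1 rose at 1000 mg/kg, with C6 at -1.57 (adjusted p = 0.000109) and C1s, C8a and Serpind1 as the further genes (adjusted p = 0.00736, 0.0106 and 0.0136). The calls of Masp1, C8g and Pros1 also depended on single animals, and 0 to 1 of the 3 kept theirs when any 1 control or 1000 mg/kg animal was left out. At 500 mg/kg, 0 of 35 passed with limma, against 0.129% of all lower and 0.349% higher, and 2 had an unadjusted p under 0.05. Pros1 was nearest, with 0.45 ± 0.10 (adjusted p = 0.0854). Without replicate 3 of the 1500 mg/kg group Pros1 rose and Serpind1 fell at 500 mg/kg (adjusted p = 0.0101 and 0.0266). The group means of 14 genes declined at each of the 3 dose steps and those of 2 rose. Across the 2 dose steps of the DAM study, 14 genes also declined at each step and 3 rose. Neither was counted over all probe sets. With dose as a number, 17 genes fell and 1 rose, against 8.84% and 7.92% of all probe sets. In the tenth of probe sets with the highest mean signal these shares were 17.6% and 18.5%, against 48.6% and 2.86% of the 35. C6 changed by -1.09 ± 0.15 (adjusted p = 0.000208) and C8g by -0.37 ± 0.045 (adjusted p = 9.67e-05) per 500 mg/kg. The others that fell were C1s, Mbl2, Masp1, Cfd, C8a, C8b, Vtn, F12, Klkb1, F10, Fga, Fgb, Serpind1, Plg and Cpb2, and Pros1 rose. Of these 18 calls 10 held under every alternative run. Those of Plg and Mbl2 ended in 10 and 6 of the leave-outs, with adjusted p of up to 0.107 and 0.0776, and those of C1s, Cfd, F12, F10 and Fga each in 1 (0.0507 to 0.0607). The other Masp1 probe sets changed by -0.038 and -0.049 per 500 mg/kg and were not called (adjusted p = 0.882 and 0.781). Second probe sets of Mbl2 and Fgb gave -0.14 and 0.031 and were not called (adjusted p = 0.218 and 0.899). That of Fga gave -0.46 and was called (adjusted p = 0.000361). Between 500 and 1500 mg/kg, 15 fell and 0 rose, against 3.60% and 3.75% of all, and at an unadjusted p under 0.05 there were 30. In the tenth with the highest mean signal 11.6% were lower and 8.05% higher, against 42.9% and 0% of the 35. C8g showed -0.95 ± 0.11 (adjusted p = 0.000597) and C6 -2.66 ± 0.45 (adjusted p = 0.00475), while Pros1 showed 0.085 ± 0.10 (adjusted p = 0.667). The other genes that fell between these doses were Mbl1, Mbl2, C8a, C8b, Vtn, F12, Klkb1, F2, F10, Fga, Fgb, Plg and Cpb2. Second probe sets of Mbl2 and Fga were also called between 500 and 1500 mg/kg, at -0.74 and -0.94 (adjusted p = 0.0289 and 0.0248). That of Fgb gave 0.59 and was not called (adjusted p = 0.358). In a fit restricted to these 2 groups, 1 of the 15 kept its call, that of C8g.

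At 2000 mg/kg dammar resin, 4 of 35 fell and 1 rose, against 6.11% and 6.22% of all probe sets tested. Of the tenth of probe sets with the highest mean signal 12.3% were lower and 16.9% higher, against 11.4% and 2.86% of the 35, so the share that fell was near the background. The median change was -0.066, against -0.039 over all probe sets. C6 again had the largest change: signals were 7164, 6362 and 5889 in controls, 4260.0, 4669.8 and 5790.4 at 800 mg/kg and 3582, 1966 and 4070.2 at 2000 mg/kg. All animals at 2000 mg/kg lay below all controls and below those at 800 mg/kg. The change was -1.07 ± 0.21 (adjusted p = 0.0055), and the call held under every alternative. Serpind1 went from 17032, 19022 and 17826 in controls to 16785, 15571 and 16826 at 800 mg/kg and 14676, 13393 and 14550.2 at 2000 mg/kg, where the change was -0.34 ± 0.068 (adjusted p = 0.00642). Masp2, a protease of the lectin route, went from 4146, 4436 and 4701 in controls to 4894, 5106 and 5321 at 800 mg/kg and 5819, 5693 and 5587 at 2000 mg/kg, with no overlap between the 3 groups. Its change was 0.36 ± 0.069 (adjusted p = 0.00413), and 2 other Masp2 probe sets gave -0.16 and 0.14 and were not called. Second probe sets of Mbl2 and Fga gave -0.36 and -0.52 and were called (adjusted p = 0.00327 and 0.00335), while those used here were not, at -0.25 ± 0.081 (adjusted p = 0.0687) and -0.003 ± 0.085 (adjusted p = 0.988). C1s went from 17054, 16453 and 16778 to 14499, 12328 and 14991, a change of -0.27 ± 0.075 (adjusted p = 0.0335). Serping1 went from 22509.7, 22700.0 and 21909.5 to 20597, 17662 and 18267, a change of -0.25 ± 0.068 (adjusted p = 0.0301). The groups did not overlap, but leaving out any 1 control or replicate 2 at 2000 mg/kg ended both calls, and leaving out replicate 3 that of Serping1, with adjusted p of up to 0.122 for C1s and 0.119 for Serping1. The scaling also mattered: all changes moved by 0.11 with a common median, after which 1 gene fell and 1 rose, and 8 fell and 1 rose after quantile normalization. Of 8 macrophage markers 2 fell at 2000 mg/kg, Cd68 (-0.78 ± 0.11, adjusted p = 0.000773) and Lyz2 (-0.38 ± 0.10, adjusted p = 0.0331), and their summed signal was 12900.4 to 16208 against 17688 to 18395 in controls. Of 8 stellate cell markers 3 fell, Lrat (-0.63 ± 0.12, adjusted p = 0.00394), Col3a1 (-0.30 ± 0.077, adjusted p = 0.0231) and Pdgfrb (-0.75 ± 0.18, adjusted p = 0.0164), with summed signals of 9197 to 9419 against 10824 to 12156. Lyz2, Col3a1 and Pdgfrb lost their calls in 4, 5 and 1 of the leave-outs (adjusted p of up to 0.132, 0.0847 and 0.0578), and the part of these markers in the changes was not tested. At 800 mg/kg 0 of 35 passed with limma, against 1.62% of all lower and 2.16% higher, and 3 had an unadjusted p under 0.05. The second Fga probe set, not the one used here, gave -0.49 ± 0.095 at 800 mg/kg and was called (adjusted p = 0.0128). All 800 mg/kg animals lay below all controls in C6, with -0.41 ± 0.21 (adjusted p = 0.378).

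Across the studies, C1s, C6 and Serpind1 fell at both highest doses. Of these genes only C6 kept its call under every alternative run in both studies. The calls of C1s ended in either study without any 1 of its controls (adjusted p = 0.0563 to 0.0883). Over the 35 genes the change at PBO 1500 mg/kg and that at DAM 2000 mg/kg had a Pearson's r of 0.755 and a Spearman's rho of 0.468, and without C6 0.512 and 0.419. This describes genes, which are not independent, from separate controls. The shared falls and the correlations are given for the 35 genes alone, with no value over all probe sets beside them. The change under PBO was the lower of the 2 in 33 of 35 genes, against 53.6% of all probe sets tested. The difference itself passed the test in 9 genes, 8 with a lower and 1 with a higher value under PBO, against 2.77% and 2.14% of all probe sets. In the tenth of probe sets with the highest mean signal 9.07% were lower and 4.83% higher, against 22.9% and 2.86% of the 35. The difference was -2.28 ± 0.56 (adjusted p = 0.0236) for C6, -1.19 ± 0.14 (adjusted p = 5.26e-05) for C8g, -0.99 ± 0.21 (adjusted p = 0.0104) for C8a and -1.03 ± 0.20 (adjusted p = 0.00559) for Klkb1. Pros1 was the gene with the higher value, 0.49 ± 0.12 (adjusted p = 0.0204). Vtn, F12, Masp1 and Cpb2 were the others. The other Masp1 probe sets gave differences of 0.17 and 0.22 and were not called (adjusted p = 0.905 and 0.813). The differences of C8a, C8g, F12 and Klkb1 passed under every alternative run, and those of the other 5 ended when single animals were left out, in C6 with adjusted p = 0.0524 to 0.0677 without DAM control replicate 2 or 3 or replicate 1 or 3 at DAM 2000 mg/kg. For Pros1 this was DAM control replicate 3 (adjusted p = 0.0623), and for Masp1 it was PBO control replicate 3, DAM control replicate 2 or replicate 1 at DAM 2000 mg/kg (0.0576, 0.0617 and 0.0612). Vtn and Cpb2 lost theirs in 8 and 9 of the leave-outs, with adjusted p of up to 0.125 and 0.107. The doses are not matched, and strain, route, duration and storage differ with the compound.

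**Figure D4:**
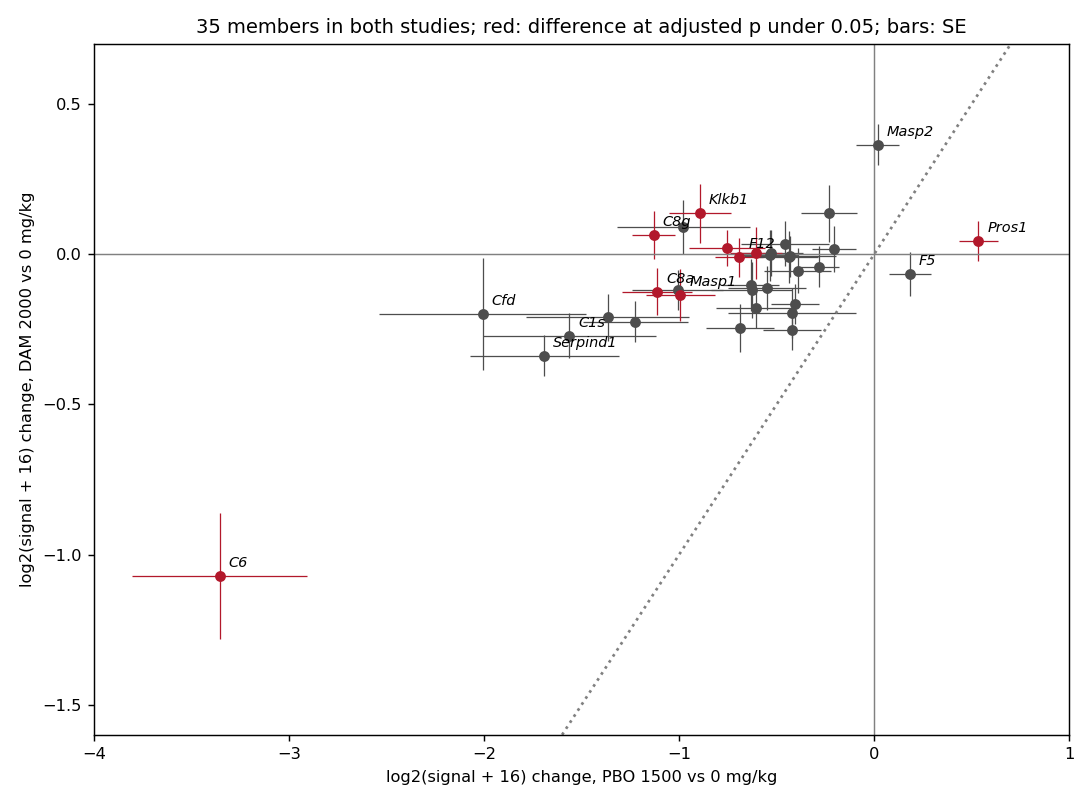
Change at DAM 2000 mg/kg (vertical axis) against change at PBO 1500 mg/kg (horizontal axis), both log2(signal + 16), for the 35 genes; bars are SE, the dotted line marks equal change and the axes differ in scale. The 9 genes in red passed the test of the difference, and C6 is lowest on both axes.

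Levels in undosed animals are a description, since strain, route, duration and storage differ together. The Actb ratio of 3' to 5' signal differed too, at 2.85 to 3.16 in Sprague-Dawley and 7.08 to 9.81 in Fischer344 controls. All 3 Sprague-Dawley controls had higher signals than all 3 Fischer344 controls in 17 genes, lower ones in 5, and overlapped in 13. This was not counted over all probe sets. Array medians over all probe sets were 107 to 114 in the Sprague-Dawley and 78.8 to 86.2 in the Fischer344 controls. Mbl1, a mannose-binding lectin, had the highest ratio, with means of 9457 ± 738 (SD, n = 3) and 5228 ± 348. Masp2 followed, with 7359 ± 241 and 4428 ± 278. C5 was on the other side, with 5369 ± 1062 in Sprague-Dawley and 8211 ± 543 in Fischer344 animals. Pros1 was also lower in Sprague-Dawley controls, at 7144 ± 131 against 9575 ± 575, and the dosed PBO animals reached 9165 to 11105. C6 overlapped, with 7152 ± 105 and 6472 ± 644.

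Other genes of the same systems were read from lists of names, and their counts stand against the same shares of all probe sets tested, 9.26% lower and 8.08% higher at PBO 1500 mg/kg and 6.11% and 6.22% at DAM 2000 mg/kg. Of 14 other complement genes tested at PBO 1500 mg/kg, 5 fell and 1 rose, or 35.7% and 7.14%, with a median of -0.63. Colec11, a lectin that binds sugars on microbes, had a change of -1.06 ± 0.16 (adjusted p = 0.000658), Fcna, a ficolin, -1.75 ± 0.35 (adjusted p = 0.00488), and Cpn1, a carboxypeptidase that inactivates complement peptides, -0.38 ± 0.089 (adjusted p = 0.0116). Cd59b, which blocks the pore on cells, rose with 0.47 ± 0.11 (adjusted p = 0.0131). The macrophage product C1qa, named after its values were seen, had signals of 4030.2, 3665 and 3935 in controls and 2326, 1402 and 339 at 1500 mg/kg, and replicate 3 was again the lowest. C1qa and C1qb fell by 1.88 and 1.33 on the log2 scale, and both calls ended without any 1 of the controls (adjusted p = 0.0515 to 0.0895). The call of Cd59b ended without control replicate 1 (0.0592) and that of Clec4f likewise (0.0501). Of 8 macrophage markers 1, Clec4f, fell, with a list median of -1.07, and the list's medians in the 3 animals were -0.15, -0.65 and -2.61; its part in these changes was not tested. Among 26 other coagulation genes tested, 4 fell and 2 rose, or 15.4% and 7.69%. Among these, Plau lost its call in 5 of the 6 leave-outs (adjusted p = 0.0675 to 0.118) and Calu in 4 (0.0619 to 0.107). A2m, a broad protease inhibitor, had -2.82 ± 0.41 (adjusted p = 0.000561), Serpine2, an inhibitor of thrombin, -0.95 ± 0.19 (adjusted p = 0.00421), and Vkorc1, the enzyme that recycles vitamin K for clotting factors, -0.92 ± 0.19 (adjusted p = 0.00601). Serpina10, an inhibitor of activated F10, rose with 0.50 ± 0.14 (adjusted p = 0.029), a call that ended without any 1 control or without replicate 1 or 2 at 1500 mg/kg (0.0599 to 0.0931). At DAM 2000 mg/kg, 1 of 14 other complement genes fell (Fcna, -0.77 ± 0.16 (adjusted p = 0.0078)), and 2 of 24 other coagulation genes fell and 1 rose: A2m -0.92 ± 0.22 (adjusted p = 0.0158, and 0.0649 and 0.0639 without DAM control replicate 3 or replicate 2 at 2000 mg/kg), Fgl1 -0.42 ± 0.096 (adjusted p = 0.013) and Serpina10 0.47 ± 0.063 (adjusted p = 0.000387).

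Transcription factors and signals that act on these genes in liver were given as a list of 18 tested genes, of which 2 fell and 0 rose at PBO 1500 mg/kg, or 11.1% lower against 9.26% of all probe sets tested. Nr3c1, the glucocorticoid receptor, had signals of 2889, 3570.1 and 2906 in controls and 1191, 1328 and 819.7 at 1500 mg/kg, a change of -1.50 ± 0.17 (adjusted p = 7.33e-05). Hnf4a, a factor of hepatocyte identity, went from 9063, 11278 and 10348 to 5817, 7101 and 7432, a change of -0.59 ± 0.14 (adjusted p = 0.0106). At DAM 2000 mg/kg 6 of 17 fell and 4 rose, or 35.3% and 23.5% against 6.11% and 6.22% of all. Foxa3 and Il6st, both among those called, each lost the call in 4 of the leave-outs (adjusted p of up to 0.068 and 0.131). Nr0b2, a repressor induced by bile acids, changed by -2.58 ± 0.19 (adjusted p = 3.59e-06), Cebpb, a factor of the acute phase, by -0.93 ± 0.091 (adjusted p = 3.20e-05), Foxa2 by 1.80 ± 0.22 (adjusted p = 0.000188) and Nr3c1 by -0.58 ± 0.096 (adjusted p = 0.00167). Hnf4a fell at this DAM dose too, by -0.345 ± 0.074 (adjusted p = 0.00898). Of 15 acute phase genes, 4 fell and 1 rose at PBO 1500 mg/kg, or 26.7% and 6.67%. Lbp, which carries bacterial lipopolysaccharide, had signals of 3107, 3422 and 3002 in controls and 9124, 9784 and 7137 at 1500 mg/kg, a change of 1.44 ± 0.14 (adjusted p = 3.50e-05). Apcs, a pentraxin, changed by -1.37 ± 0.19 (adjusted p = 0.000483), Itih3 by -0.66 ± 0.12 (adjusted p = 0.00287) and Itih1 by -0.97 ± 0.22 (adjusted p = 0.00869). The call of Ahsg, the fourth that fell, ended without control replicate 3 (0.0524). Of 7 hepatocyte markers 1 fell, Ambp, with -0.56 ± 0.13 (adjusted p = 0.0124, and 0.0556 without control replicate 3). At DAM 2000 mg/kg 2 of 14 acute phase genes rose and 0 fell. These were Lbp with 0.46 ± 0.10 (adjusted p = 0.0105) and Orm1 with 0.36 ± 0.072 (adjusted p = 0.00626). Among the 7 hepatocyte markers Apoa1 rose there by 0.62 ± 0.089 (adjusted p = 0.000675), and 0 fell.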

How the data were processed

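Per the submitters' processing notes, the authors computed their deposited intensities, which are linear and 1 per probe set and array, with MAS5, whose release is not given there. Groups, doses and replicate numbers came from the labels. All 57 array control probe sets were left out of the tests. Values were taken as log2(signal + 16) with the authors' scaling kept, and probe sets with a mean above the 40th percentile of a fit were tested, which left 18625. Each study was fitted with all its arrays with limma 3.58.1 (lmFit, eBayes with an intensity trend) in R 4.3.3, and the difference between studies over all 21 arrays. Benjamini-Hochberg adjustment ran over every probe set tested, and "fell", "rose" and "called" mean an adjusted p under 0.05. The fit was tested on simulated data. The 40 genes, the other gene lists and the alternatives were chosen with earlier results of these data known. Signals by animal were given for genes called at PBO 1500 or DAM 2000 mg/kg, up to 4 per role with the smallest adjusted p, and from each other list up to 4 called genes were named. Further genes were named where leave-outs ended a call, and Hnf4a at DAM 2000 mg/kg beside its PBO value. Promoters came from RefSeq (GRCr8). Figures used Python 3.11.15 and matplotlib 3.10.9.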

Additional observations from a re-analysis of the deposited data

Results flagged for a closer look

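For 9 genes the change at PBO 1500 mg/kg minus the change at DAM 2000 mg/kg passed limma's test of the difference, on the log2(signal + 16) scale. The difference was -2.28 for C6, -1.19 for C8g, -1.03 for Klkb1, -0.99 for C8a, -0.86 for Masp1, -0.78 for Cpb2, -0.68 for F12, -0.61 for Vtn and 0.49 for Pros1. For Masp1 the other probe sets gave 0.17 and 0.22 and were not called. Compound, strain, route, duration and storage of the livers cannot be told apart in these differences.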

How the results depend on the processing

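No called change of a gene changed its direction under any alternative. Of 20 genes called at PBO 1500 mg/kg, 7 were called in a fit of those 2 groups alone, and 11 to 30 with 1 array left out. At PBO 1000 mg/kg, 3 genes became 1 without the intensity trend, 5 with array weights, 7 in a fit of the 2 groups, and 0 to 7 with 1 array left out. At PBO 500 mg/kg, 0 became 1 with median scaling, 1 with array weights, 2 in a fit of the 2 groups, and 0 to 2 with 1 array left out. Between PBO 500 and 1500 mg/kg, 15 became 8 with quantile normalization, 5 without the trend, 1 in a fit of the 2 groups, and 6 to 27 with 1 array left out. For the PBO trend, 18 became 13 to 20 with 1 array left out. At DAM 2000 mg/kg, 5 became 3 without a filter, 9 with quantile normalization, 2 with median scaling, 2 without the trend, 3 in a fit of the 2 groups, and 3 to 6 with 1 array left out. At DAM 800 mg/kg, 0 became 1 with quantile normalization and stayed 0 with 1 array left out. For the difference between studies, 9 became 5 to 18 with 1 array left out. The cause of these shifts was not tested. With the replicate number as a block, 3 genes were called at DAM 2000 mg/kg; the numbers do not pair the samples, since same-numbered animals had correlated deviations of -0.072 to 0.034 in the PBO and -0.062 to 0.104 in the DAM study. The 3 animals per group limit the precision of all values.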

Other observations

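Markers of other cells in the liver were read beside the complement and coagulation genes at PBO 1500 mg/kg. The lists are short, and their counts stand against 9.26% of all probe sets tested lower and 8.08% higher at this dose. All 3 erythroid genes tested fell, with Hbb, a haemoglobin chain, at -1.70 ± 0.23 (SE, adjusted p = 0.000374). Over 4 erythroid genes, 1 of which was not tested, the median was -1.64, -1.96 and -1.25 in the 3 animals. The call of Slc4a1, an anion exchanger of red cells, ended in 3 of 6 leave-outs (adjusted p of up to 0.0627). Of 8 stellate cell genes 3 fell, among them Reln at -0.94 ± 0.21 (adjusted p = 0.0088); the calls of Lrat and Col3a1 ended in 2 and 3 leave-outs (adjusted p of up to 0.0833 and 0.107). Of 6 endothelial genes 2 fell, among them Kdr, a receptor of vascular growth factor, at -0.85 ± 0.10 (adjusted p = 0.000161), while the call of Tek ended in 4 leave-outs (up to 0.105). Epcam, an adhesion molecule of bile duct cells, rose by 2.06 ± 0.13 (adjusted p = 7.79e-07) and was the 1 gene of 3 cholangiocyte markers called. Of 3 platelet genes 0 were called. Of 2 lymphocyte genes tested Gzmb, a granule protease, fell, with -1.77 ± 0.38 (adjusted p = 0.00625), and over 7 lymphocyte genes the medians in the 3 animals were -1.02, -1.12 and -1.79. Without control replicate 1 or 2 Gzmb did not pass the filter on low signals. Of 2 neutrophil genes tested S100a9 fell, with -0.72 ± 0.21 (adjusted p = 0.0305), a call that ended in 5 of 6 leave-outs (up to 0.103). At DAM 2000 mg/kg Epcam rose by 1.37 ± 0.14 (adjusted p = 3.76e-05), and 0 of 3 erythroid genes were called. There 6.11% of all probe sets tested were lower and 6.22% higher.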
